A study of Mus musculus with 6 samples.

Results

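The genes described here are 37 genes of protein folding and protein degradation in the endoplasmic reticulum (ER), taken by symbol from the 20475 genes of the deposited table, and all 37 were found in it. They comprised 4 lumenal chaperones, 4 co-chaperones and exchange factors of the chaperone BiP, 2 lectin chaperones, 8 disulfide enzymes, 3 prolyl isomerases, 3 other lumenal proteins induced by ER stress, 8 degradation factors, 2 subunits of the translocon and 3 stress sensors. RNA had been sequenced from NIH3T3 cells, a mouse embryonic fibroblast line, at passage 5 and 48 h after treatment. In the first group the cells had received extracellular vesicles (EVs, membrane-bound particles that cells release) from the human triple-negative breast cancer line MDA-MB-231. In the second they had received EVs of the human mammary epithelial line MCF10A, which forms no tumours, and in the third phosphate-buffered saline (PBS), the fluid in which the EVs were suspended. Each group had 2 libraries, and no other agent or genetic change was labelled in any group.

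Proteins bound for secretion enter the ER through the Sec61 channel, fold there with the help of BiP, lectin chaperones and disulfide enzymes, and are passed back to the cytosol for proteasomal breakdown when folding fails. The membrane proteins IRE1 (gene Ern1), ATF6 and PERK sense unfolded protein in the lumen and start the unfolded protein response, in which IRE1 splices the Xbp1 mRNA and spliced XBP1 and cleaved ATF6 switch on many of the genes named above. Fibroblasts secrete large amounts of collagen and other matrix proteins, all of which pass through this machinery. Reads summed over whole genes, as here, do not show how much of the Xbp1 mRNA was spliced.

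Spliced XBP1 and ATF6 act, as background, through the ER stress response element (ERSE), which the factor NF-Y also binds. Windows around exact matches are shown for 11 genes, since the results below set the genes that hold this element beside those that do not. Promoter sequences, 250 bases before to 50 bases after the annotated start, were those of RefSeq on GRCm38.p6, and 30 of the 37 genes had an entry. Hyou1, Hspa13, Sil1, Manf, Derl1, Sec61a1 and Atf6 had none, and Ero1l and Ero1lb were matched under the synonyms Ero1a and Ero1b. Each window is written 5′ to 3′ along the gene's own strand, with the fixed letters of ERSE or ERSE-II in capitals.
Hspa5, chr2:34772010-34772058, + strand: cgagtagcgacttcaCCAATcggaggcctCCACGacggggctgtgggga
Hsp90b1, chr10:86705518-86705671, - strand: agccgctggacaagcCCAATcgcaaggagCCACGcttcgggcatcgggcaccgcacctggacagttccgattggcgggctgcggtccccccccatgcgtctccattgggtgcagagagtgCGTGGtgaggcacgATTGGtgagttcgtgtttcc
Dnajc3, chr14:118937812-118937860, + strand: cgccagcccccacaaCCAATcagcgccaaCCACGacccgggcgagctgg
Calr, chr8:84847060-84847108, - strand: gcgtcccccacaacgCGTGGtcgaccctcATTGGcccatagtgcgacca
Canx, chr11:50325785-50325833, - strand: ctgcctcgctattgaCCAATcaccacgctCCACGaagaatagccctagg
Pdia6, chr12:17266476-17266524, + strand: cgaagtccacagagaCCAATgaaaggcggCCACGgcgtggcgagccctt
Ero1lb, chr13:12565667-12565715, + strand: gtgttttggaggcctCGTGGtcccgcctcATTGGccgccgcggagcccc
Creld2, chr15:88819505-88819553, + strand: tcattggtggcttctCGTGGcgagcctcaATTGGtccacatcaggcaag
Syvn1, chr19:6046517-6046565, + strand: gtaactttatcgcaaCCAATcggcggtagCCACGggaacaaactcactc
Herpud1, chr8:94386362-94386402, + strand: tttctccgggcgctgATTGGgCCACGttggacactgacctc
Derl3, chr10:75893227-75893275, + strand: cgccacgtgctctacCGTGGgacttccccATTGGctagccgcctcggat

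The element searched was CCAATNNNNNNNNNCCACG for ERSE, ATTGGNCCACG for ERSE-II and TGACGTGG for the unfolded protein response element (UPRE), each on both strands. ERSE and ERSE-II both hold CCACG, and so does the opposite strand of UPRE, so that matches of the 3 can overlap. ERSE was found in the promoters of 10 of the 30 genes (33.3%), against 39 of all 32851 mouse promoters of the same length (0.119%). Counted by gene, 23 of the 11944 genes tested below that had an entry held it (0.193%), these 10 included. The 37 were chosen as genes of this machinery, so the difference in shares is no test. Hspa5, Hsp90b1, Dnajc3, Calr, Canx, Pdia6, Ero1lb, Creld2, Syvn1 and Derl3 were the 10, and Hsp90b1 held it 2 times. In Hspa5 it lay 65 to 47 bases before the start, and in Syvn1 44 to 26 bases before it. ERSE-II was found in Herpud1, 52 to 42 bases before the start, and in Dnajb11, where it lay after the start. It was in 0.0365% of all promoters and in 0.0754% of the tested genes with an entry. UPRE was found in Txndc5 alone of the 30 genes, in 0.676% of all promoters and in 0.954% of the tested genes with an entry. A match is a description of these letters, not of binding, and 1 mismatch is enough for a functional element to be missed.

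The libraries held 22451173 and 23945284 gene reads with MDA-MB-231 EVs, 23126453 and 29315530 with MCF10A EVs, and 23279661 and 27000816 with PBS, and 14553 to 14856 genes had a read. All 8 fibroblast markers were detected in every library, with summed levels of 358400 to 366400, 363400 to 373200 and 417400 to 418100 normalised reads with MDA-MB-231 EVs, MCF10A EVs and PBS. They did not move together. Vim, Col1a1, Col1a2 and Thy1 were lower than PBS in both EV groups, Fn1 with MDA-MB-231 EVs alone, and Pdgfrb and S100a4 with MCF10A EVs alone. Col3a1 was higher with MDA-MB-231 and MCF10A EVs (log2 changes 0.458 and 0.795, limma adjusted p = 1.13e-08 and 8.94e-11). Of 8 epithelial markers, which the vesicle donors might bring, 5 to 7 were at 0 reads in each library and the sum was at most 48.7, with Epcam at 0 throughout. Most of that sum was Krt8, which was not called. Cdh1 had 6 reads in the MDA-MB-231 EV libraries together, 5 in the MCF10A EV libraries and 0 with PBS. It was called higher than PBS in both EV groups (log2 changes 2 and 1.74, limma adjusted p = 0.0177 and 0.0397). The source of these few reads was not tested. The 5 macrophage and leukocyte markers found, of 7 listed, summed to 977 to 1040 with MDA-MB-231 EVs, 1768 to 1820 with MCF10A EVs and 3023 to 3120 with PBS, while the pan-leukocyte gene Ptprc had 1 read in the 2 MDA-MB-231 EV libraries together and 0 in the other 4. The 6 endothelial markers summed to 155 to 190, 289 to 339 and 350 to 358 in the same order, with Emcn at 0 throughout. The macrophage and the endothelial sum were each nearly all 1 gene. Cd14 averaged 977, 1711 and 2992 normalised reads with MDA-MB-231 EVs, MCF10A EVs and PBS, while Csf1r averaged 27.6, 80.8 and 78.5 and Itgam 3.11, 1.91 and 1.01. Of the endothelial markers Cdh5 averaged 160, 304 and 347, and Esam, at 7.30, 5.72 and 1.49, was higher than PBS in both EV groups (log2 changes 1.74 and 1.44, limma adjusted p = 0.0107 and 0.0336). The part of Cd14 and Cdh5, which moved in the same order of groups as most of the ER genes, was not tested. In such bulk RNA, fewer cells of a type and less RNA per cell cannot be told apart.

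Summed, the 37 genes took a smaller share of the reads after EVs. The 37 genes held 1.26% and 1.24% of the reads with MDA-MB-231 EVs, 1.55% and 1.52% with MCF10A EVs, and 1.62% and 1.61% with PBS. The 3 groups did not overlap, and the MDA-MB-231 EV libraries stood farther from PBS than the MCF10A EV libraries did. The lectin chaperones went the other way with MCF10A EVs, with 0.3145% and 0.3154% of the reads against 0.3018% and 0.3003% with PBS. Of the 37 genes, 28 had their libraries in the order MDA-MB-231 EV below MCF10A EV below PBS with no overlap between any groups, as did 8.75% of the 15025 genes tested. The others were Hspa13, Dnajb11, Calr, Canx, Pdia4, Txndc5, Fkbp2, Derl2 and Derl3.

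**Figure D1:**
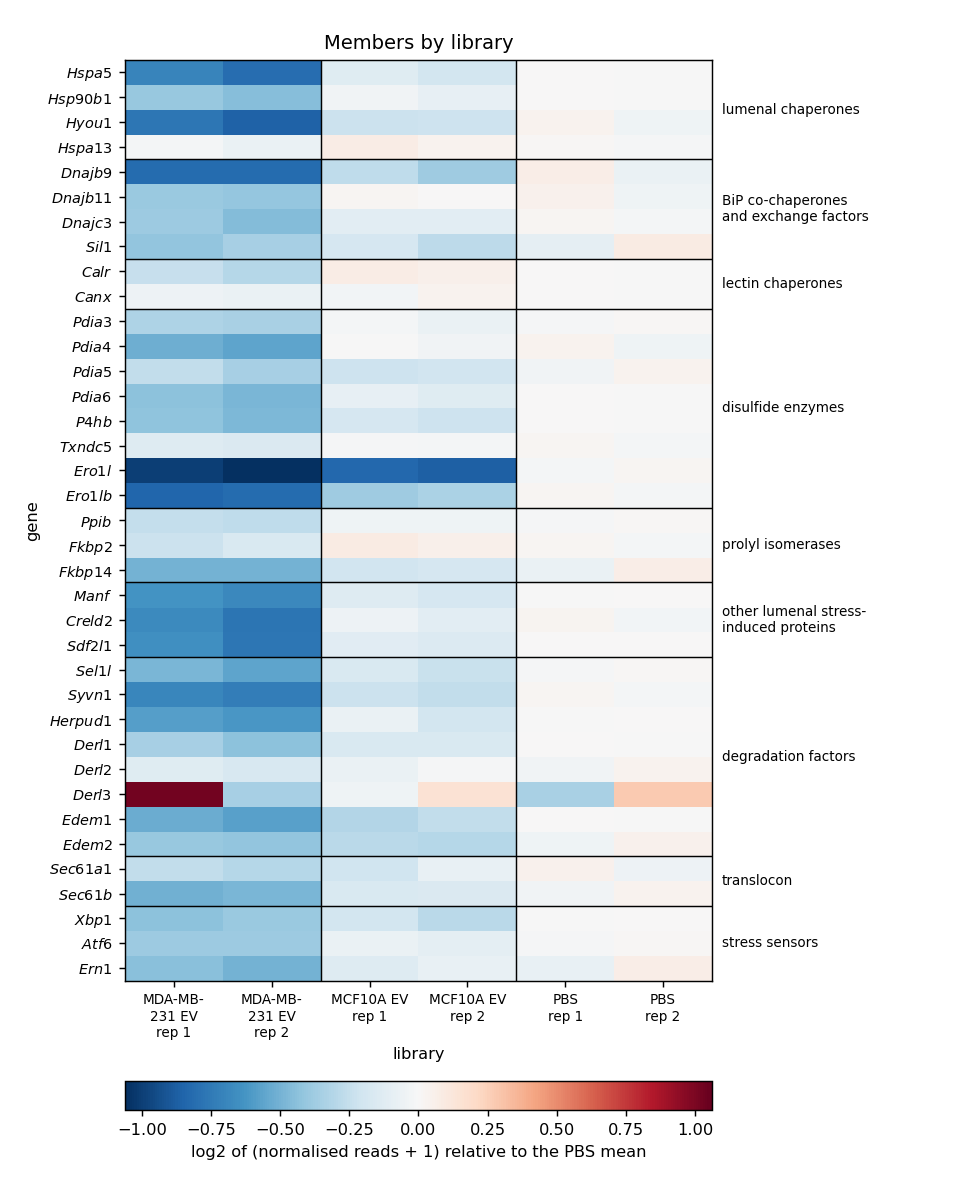
Level of each of the 37 genes (rows, by role) in each of the 6 libraries (columns), as log2 of normalised reads plus 1 relative to the mean of the 2 PBS libraries. Blue is lower than PBS and red is higher. Ero1l is the darkest blue in both EV groups, and the single dark red cell is Derl3, at 10.1 normalised reads in 1 library.

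With MDA-MB-231 EVs set against PBS, 34 of the 37 genes fell and none rose (limma, Benjamini-Hochberg adjusted p under 0.05). Of all 15025 genes tested, 34.8% were called in that comparison, 16.9% lower and 17.9% higher. The median change of the 37 genes was -0.43 on the log2 scale, against 0.01 over all genes tested, and 27 of them fell at least 1.25-fold, as did 7.70% of all genes. In 36 of the 37, both MDA-MB-231 EV libraries lay below both PBS libraries, as in 31.6% of all genes. The 3 genes not called were Hspa13, Canx and Derl3. Under every alternative run 29 of the 34 stayed called, and Sil1, Calr, Txndc5, Derl2 and Sec61a1 lost the call under at least 1.

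With MCF10A EVs set against PBS, 22 of the 37 genes fell and none rose, against 31.7% of all genes called, 14.6% lower and 17.1% higher. Their median change was -0.14 and that of all genes 0.00. The falls were small: Ero1l and Ero1lb fell at least 1.25-fold and the other 20 fell by less (Dnajb9 just under it), where 5.44% of all genes fell at least that far. Of the 37, 28 had both MCF10A EV libraries below both PBS libraries, against 31.1% of all genes, and 3 had both above, against 33% of all genes. The count was 7 with no filter on low values and 7 in limma without its trend, and 16 or 17 when 1 of the PBS or MCF10A EV libraries was left out. The oxidases Ero1l and Ero1lb, the degradation factors Syvn1, Edem1 and Edem2, and Xbp1 stayed called under every alternative; the other 16, Hspa5 included, lost the call under at least 1.

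The EV groups were also compared with each other, which tests whether the changes against PBS differed, since the PBS term cancels. Here 30 of the 37 genes were lower with MDA-MB-231 EVs than with MCF10A EVs and none higher, against 10.1% and 6.84% of all genes (16.9% called in all). The median difference was -0.31, against 0.00 for all genes, and 17 of the 37 were called and at least 1.25-fold lower, against 2.96% of all genes. Both MDA-MB-231 EV libraries lay below both MCF10A EV libraries for 36 of the 37, as for 28.9% of all genes. The count was 19 with no filter on low values and 16 in limma without its trend, and 15 of the 30 stayed called under every alternative, among them Hspa5, Hyou1, Calr, Pdia4, Creld2, Sdf2l1, Manf, Syvn1, Herpud1 and Atf6. In all, 19 genes were called lower in all 3 comparisons, a step across the groups. Of these, Ero1lb and Syvn1 alone kept all 3 calls under every alternative. A further 11 genes fell with MDA-MB-231 EVs against both other groups but were not called with MCF10A EVs. The share of all genes with each pattern of calls was not counted. As background, 8.75% of all genes had their libraries in the order of that step without overlap. Sil1, Pdia5 and Edem2 fell in both EV groups with no call between these, and Derl2 fell against PBS with MDA-MB-231 EVs alone.

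**Figure D2:**
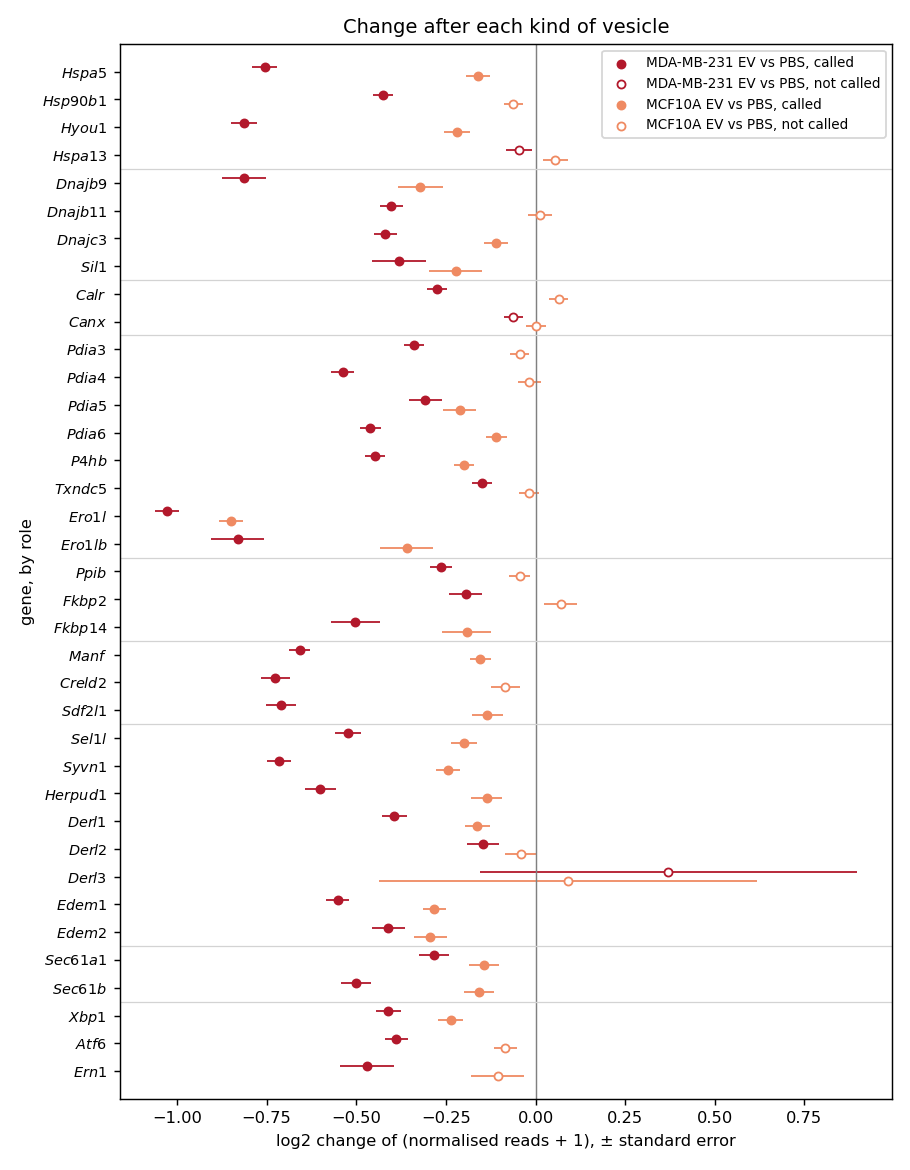
Change against PBS of each gene (rows, by role) as log2 of normalised reads plus 1, with the standard error of the fit, after MDA-MB-231 EVs (dark red) and MCF10A EVs (orange). Filled points passed an adjusted p of 0.05 and open points did not. All filled points lie left of 0, and those of MDA-MB-231 EVs lie left of those of MCF10A EVs.

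Among the lumenal chaperones, Hspa5, Hyou1 and Hsp90b1 fell with MDA-MB-231 EVs and Hspa13 was not called. Hspa5 encodes BiP, the main ER chaperone of the HSP70 family, which also holds the stress sensors inactive. It had 35740 and 33160 normalised reads with MDA-MB-231 EVs, 53250 and 50830 with MCF10A EVs, and 58420 and 57870 with PBS. The 3 groups stood apart, with the MDA-MB-231 EV libraries far below the other 4. Hspa5 was 1.69-fold lower with MDA-MB-231 EVs than with PBS (log2 change -0.76, SE 0.03, limma adjusted p = 3.11e-10) and 1.51-fold lower than with MCF10A EVs (adjusted p = 1.45e-08 in limma), whereas MCF10A EVs lowered it 1.12-fold against PBS (limma adjusted p = 0.00204).

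Hyou1, an ER protein of the HSP70 superfamily that exchanges the nucleotide of BiP, had 5481 and 5148 normalised reads with MDA-MB-231 EVs, 7987 and 8036 with MCF10A EVs, and 9606 and 9062 with PBS. It kept the same order of groups without overlap, and was 1.76-fold lower with MDA-MB-231 EVs (log2 change -0.81, SE 0.04, limma adjusted p = 2.27e-10) and 1.16-fold lower with MCF10A EVs (limma adjusted p = 0.00023) than with PBS. Hsp90b1 encodes GRP94, the HSP90 of the ER, which folds integrins and Toll-like receptors. It had 48050 and 46550 normalised reads with MDA-MB-231 EVs, 61810 and 59950 with MCF10A EVs, and 63830 and 63270 with PBS. The MDA-MB-231 EV libraries were the low ones: Hsp90b1 was 1.34-fold lower than with PBS (log2 change -0.43, SE 0.03, limma adjusted p = 1.46e-08). The MCF10A EV libraries differed from PBS by -0.06, not called (limma adjusted p = 0.102). Of 19 alternatives 7 called that fall, among them edgeR and DESeq2 (adjusted p = 0.0235 and 0.0204). Limma did so with TMM, with DESeq2 size factors and with only the 2 groups compared (limma adjusted p = 0.0492, 0.0483 and 0.0307). It also did so without the first or the second MDA-MB-231 EV library, at a log2 change of -0.06. An antisense pseudogene covers 10.3% of the exon bases of Hsp90b1, and with the counted strand not given in the sources used here its reads cannot be told apart from those of Hsp90b1.

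Hspa13, a microsomal HSP70 relative also called STCH, had 2666 and 2575 normalised reads with MDA-MB-231 EVs, 2850 and 2773 with MCF10A EVs, and 2730 and 2682 with PBS. Its 6 values lay close together, and it was called in none of the 3 comparisons; its log2 change with MDA-MB-231 EVs was -0.05 (SE 0.04, limma adjusted p = 0.353).

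The co-chaperones of BiP all fell with MDA-MB-231 EVs, and 3 of the 4 with MCF10A EVs, against 16.9% and 14.6% of all genes tested. Dnajb9, also called ERdj4, brings BiP to IRE1 and to misfolded proteins. It had 578 and 577 normalised reads with MDA-MB-231 EVs, 845 and 781 with MCF10A EVs, and 1064 and 968 with PBS. The groups formed 3 separate steps, with falls of 1.76-fold with MDA-MB-231 EVs (log2 change -0.81, SE 0.06, limma adjusted p = 9.09e-08) and of 0.32 on the log2 scale with MCF10A EVs (limma adjusted p = 0.000972) against PBS.

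Dnajc3, or p58IPK, a co-chaperone that also inhibits eIF2alpha kinases, had 4050 and 3851 normalised reads with MDA-MB-231 EVs, 4884 and 4899 with MCF10A EVs, and 5359 and 5206 with PBS. It was 1.34-fold lower with MDA-MB-231 EVs (limma adjusted p = 1.35e-07) and 1.08-fold lower with MCF10A EVs (limma adjusted p = 0.0184) than with PBS, again in 3 steps. The call of Dnajc3 with MCF10A EVs was lost without the first PBS library or either MCF10A EV library (limma adjusted p = 0.0781 to 0.162). Dnajb11, or ERdj3, which binds unfolded proteins and hands them to BiP, had 4286 and 4234 normalised reads with MDA-MB-231 EVs, 5717 and 5641 with MCF10A EVs, and 5804 and 5459 with PBS. Here the MCF10A EV libraries lay within the range of PBS (log2 change 0.01, limma adjusted p = 0.819), and the MDA-MB-231 EV libraries were lower than both (1.32-fold against PBS, limma adjusted p = 2.26e-07). Sil1, another exchange factor of BiP, was 1.30-fold lower with MDA-MB-231 EVs and 1.17-fold lower with MCF10A EVs than with PBS (limma adjusted p = 0.000945 and 0.0349). Without the second PBS library the log2 change of Sil1 with MCF10A EVs was -0.13, against -0.22 with all libraries, and not called (limma adjusted p = 0.314), and the call was also lost without either MCF10A EV library (limma adjusted p = 0.0534 and 0.222).

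The lectin chaperones, which hold glycoproteins during folding, had the smallest median change of the 9 roles with MDA-MB-231 EVs, -0.17. Calr, or calreticulin, had 40020 and 38490 normalised reads with MDA-MB-231 EVs, 50220 and 49170 with MCF10A EVs, and 47640 and 47360 with PBS. The MDA-MB-231 EV libraries were the lowest and the MCF10A EV libraries the highest, without overlap. Calr was 1.21-fold lower with MDA-MB-231 EVs than with PBS (log2 change -0.28, SE 0.03, limma adjusted p = 1.26e-06), and its log2 change with MCF10A EVs was 0.07 (limma adjusted p = 0.085). That value passed the threshold as a rise when only the MCF10A EV and PBS libraries were fitted (limma adjusted p = 0.0214) and without the first or the second MDA-MB-231 EV library (limma adjusted p = 0.0253 and 0.0254). Scaling moved Calr: with quantile scaling its log2 change was -0.04 with MDA-MB-231 EVs, not called (limma adjusted p = 0.122), and 0.15 with MCF10A EVs, a called rise (limma adjusted p = 0.000195). With library totals the rise with MCF10A EVs was 0.09 and called (limma adjusted p = 0.0043).

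Canx, or calnexin, the membrane-bound relative of calreticulin, had 27410 and 27230 normalised reads with MDA-MB-231 EVs, 27920 and 29190 with MCF10A EVs, and 28670 and 28380 with PBS. Its values lay within a narrow band, and it was called in none of the 3 comparisons (log2 change with MDA-MB-231 EVs -0.06, SE 0.03, limma adjusted p = 0.0956); edgeR and DESeq2 called it lower with MDA-MB-231 EVs, with adjusted p = 0.0439 and 0.046. Canx and Hspa13 were not low in reads: they had 52541 and 5041 in the MDA-MB-231 EV libraries together.

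All 8 disulfide enzymes fell with MDA-MB-231 EVs and 5 of the 8 with MCF10A EVs, against 16.9% and 14.6% of all genes tested. Ero1l, the oxidase ERO1-alpha that recharges protein disulfide isomerase and is also induced by hypoxia, had 3871 and 3702 normalised reads with MDA-MB-231 EVs, 4327 and 4247 with MCF10A EVs, and 7611 and 7840 with PBS. Unlike Hspa5, it was low in both EV groups, with the PBS libraries far above the other 4. The fall was 2.04-fold with MDA-MB-231 EVs (log2 change -1.03, SE 0.03, limma adjusted p = 5.53e-12) and 1.80-fold with MCF10A EVs (log2 change -0.85, SE 0.03, limma adjusted p = 1.70e-10), the largest of the 37 genes in each comparison. Between the EV groups the difference was 1.13-fold (limma adjusted p = 0.00135).

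Its paralogue Ero1lb had 292 and 296 normalised reads with MDA-MB-231 EVs, 402 and 414 with MCF10A EVs, and 531 and 517 with PBS. It stood in 3 even steps and was 1.78-fold lower with MDA-MB-231 EVs (limma adjusted p = 4.35e-07) and 1.28-fold lower with MCF10A EVs (limma adjusted p = 0.0016) than with PBS. Pdia4, or ERp72, a disulfide isomerase, had 10120 and 9816 normalised reads with MDA-MB-231 EVs, 14460 and 14140 with MCF10A EVs, and 14900 and 14050 with PBS. Its MCF10A EV libraries lay inside the range of PBS (log2 change -0.02, limma adjusted p = 0.737), and its fall with MDA-MB-231 EVs was 1.45-fold (log2 change -0.54, SE 0.03, limma adjusted p = 6.26e-09). With library totals as the scale, the log2 change of Pdia4 with MCF10A EVs was 0.006.

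The other disulfide enzymes fell by between 1.11-fold for Txndc5 and 1.38-fold for Pdia6 with MDA-MB-231 EVs, with Pdia5, Pdia3 and P4hb in between. P4hb, protein disulfide isomerase itself and also the beta subunit of collagen prolyl 4-hydroxylase, was 1.37-fold lower with MDA-MB-231 EVs and 1.15-fold lower with MCF10A EVs than with PBS (limma adjusted p = 9.54e-09 and 5.77e-05). Pdia3, or ERp57, which works with calnexin and calreticulin, was 1.27-fold lower with MDA-MB-231 EVs (limma adjusted p = 1.30e-07) and was not called with MCF10A EVs (log2 change -0.04). Pdia5 and Pdia6 fell with both kinds of EV, and the call of Pdia6 with MCF10A EVs was lost without either PBS library or the second MCF10A EV library (limma adjusted p = 0.0663 to 0.0965).

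**Figure D3:**
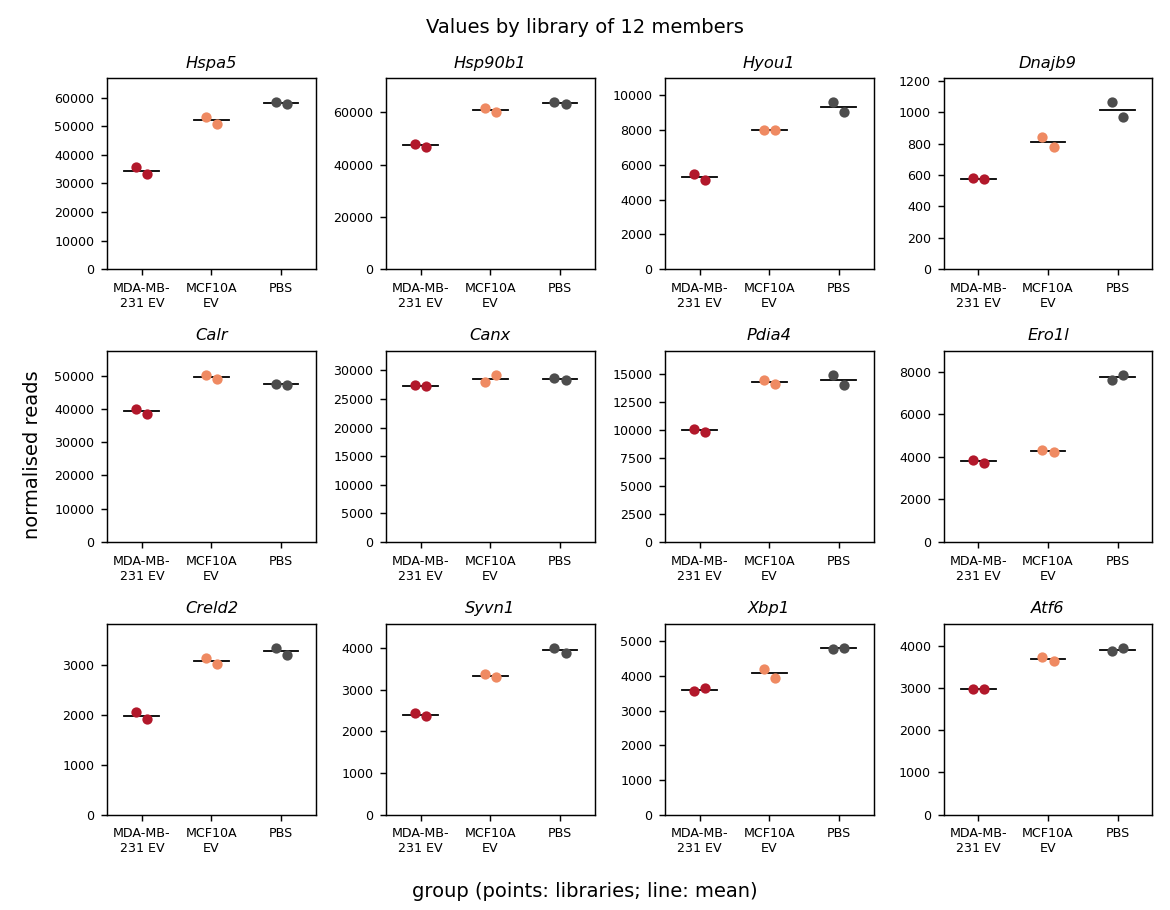
Normalised reads (vertical axes, from 0) of 12 of the genes in each library, by group, with the mean of each group as a line. Hspa5, Hyou1, Dnajb9 and Syvn1 step up across the 3 groups, Calr, Pdia4 and Atf6 are low with MDA-MB-231 EVs, Ero1l is low with both kinds of EV, and Canx differs little.

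The prolyl isomerases, which turn peptide bonds at proline, all fell with MDA-MB-231 EVs, as did 16.9% of all genes tested. Fkbp14, which acts on collagen, had 434 and 434 normalised reads with MDA-MB-231 EVs, 534 and 543 with MCF10A EVs, and 586 and 645 with PBS. The groups did not overlap, and Fkbp14 was 1.42-fold lower with MDA-MB-231 EVs (limma adjusted p = 3.24e-05) and 1.14-fold lower with MCF10A EVs (limma adjusted p = 0.0446) than with PBS. Without the second PBS library the log2 change of Fkbp14 with MCF10A EVs was -0.12, against -0.19 with all libraries, and not called (limma adjusted p = 0.324), and the call was also lost without either MCF10A EV library (limma adjusted p = 0.162 and 0.119). Ppib, or cyclophilin B, had 3893 and 3852 normalised reads with MDA-MB-231 EVs, 4504 and 4511 with MCF10A EVs, and 4608 and 4687 with PBS. It was 1.20-fold lower with MDA-MB-231 EVs than with PBS (limma adjusted p = 5.88e-06), and the MCF10A EV libraries, though below PBS, were not called. Snx22 covers 25% of the exon bases of Ppib on the opposite strand, so its reads and those of Ppib cannot be told apart here.

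Fkbp2, the smallest change of the 3, had 1024 and 1072 normalised reads with MDA-MB-231 EVs, 1273 and 1245 with MCF10A EVs, and 1214 and 1185 with PBS. The MCF10A EV libraries were the highest and the MDA-MB-231 EV libraries the lowest, with a fall of 1.15-fold with MDA-MB-231 EVs against PBS (limma adjusted p = 0.00376). The log2 change of Fkbp2 with MCF10A EVs, 0.07, was not called (limma adjusted p = 0.289).

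Creld2, Sdf2l1 and Manf are lumenal proteins known as targets of the unfolded protein response: Creld2 is a disulfide isomerase, Sdf2l1 works with ERdj3 and BiP, and Manf is a secreted factor that binds BiP. They fell together with MDA-MB-231 EVs, with a median of -0.71. Creld2 had 2045 and 1902 normalised reads with MDA-MB-231 EVs, 3140 and 3018 with MCF10A EVs, and 3334 and 3195 with PBS. Only the MDA-MB-231 EV libraries stood well below, by 1.65-fold against PBS (log2 change -0.73, SE 0.04, limma adjusted p = 4.37e-09) and by 1.56-fold against MCF10A EVs (limma adjusted p = 5.33e-08), which is the largest difference between the EV groups among the 37 genes. Its log2 change with MCF10A EVs was -0.08 (limma adjusted p = 0.143).

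Sdf2l1 had 1632 and 1499 normalised reads with MDA-MB-231 EVs, 2350 and 2312 with MCF10A EVs, and 2558 and 2558 with PBS. The fall was 1.64-fold with MDA-MB-231 EVs (limma adjusted p = 7.17e-09) and 1.10-fold with MCF10A EVs (limma adjusted p = 0.0249). The call of Sdf2l1 with MCF10A EVs was lost without any 1 of the PBS and MCF10A EV libraries (limma adjusted p = 0.0764 to 0.137). Manf, with 5481 and 5278 normalised reads with MDA-MB-231 EVs, 7734 and 7522 with MCF10A EVs, and 8468 and 8512 with PBS, was 1.58-fold lower with MDA-MB-231 EVs (limma adjusted p = 3.59e-10) and 1.11-fold lower with MCF10A EVs (limma adjusted p = 0.00107). In both genes the 3 groups stood apart, with the MCF10A EV libraries nearer to PBS.

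Of the degradation factors, 7 of 8 fell with MDA-MB-231 EVs and 6 of 8 with MCF10A EVs, against 16.9% and 14.6% of all genes tested. Syvn1 encodes HRD1, the ubiquitin ligase that passes misfolded proteins out of the ER, and had 2442 and 2371 normalised reads with MDA-MB-231 EVs, 3372 and 3301 with MCF10A EVs, and 4011 and 3894 with PBS. The groups formed 3 steps, with falls of 1.64-fold with MDA-MB-231 EVs (log2 change -0.72, SE 0.03, limma adjusted p = 5.98e-10) and 1.18-fold with MCF10A EVs (limma adjusted p = 6.65e-05). Its partner Sel1l, the adaptor of HRD1, was 1.44-fold and 1.15-fold lower with MDA-MB-231 EVs and MCF10A EVs (limma adjusted p = 2.98e-08 and 0.000568).

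Herpud1, a membrane protein of the HRD1 complex and a strongly stress-induced gene, had 1587 and 1554 normalised reads with MDA-MB-231 EVs, 2261 and 2078 with MCF10A EVs, and 2369 and 2394 with PBS. It was 1.52-fold lower with MDA-MB-231 EVs (limma adjusted p = 5.12e-08) and 1.10-fold lower with MCF10A EVs (limma adjusted p = 0.0257) than with PBS. Without the second MCF10A EV library the log2 change of Herpud1 with MCF10A EVs was -0.07, against -0.14 with all libraries, and not called (limma adjusted p = 0.28), and the call was also lost without either PBS library (limma adjusted p = 0.0938 and 0.132). Edem1, a lectin-like factor that marks misfolded glycoproteins, had 4247 and 4089 normalised reads with MDA-MB-231 EVs, 4937 and 5112 with MCF10A EVs, and 6146 and 6078 with PBS. Its MCF10A EV libraries lay about midway, 1.22-fold below PBS (limma adjusted p = 9.60e-06), with MDA-MB-231 EVs 1.47-fold below PBS (limma adjusted p = 5.47e-09).

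Edem2, a mannosidase that trims such glycoproteins, was 1.33-fold lower with MDA-MB-231 EVs and 1.23-fold lower with MCF10A EVs than with PBS, and its difference between the EV groups, -0.12, was not called (limma adjusted p = 0.0982). Derl1 and Derl2 belong to the derlins, membrane proteins of the export channel. Derl1 was 1.31-fold lower with MDA-MB-231 EVs and 1.12-fold lower with MCF10A EVs, and Derl2 was 1.11-fold lower with MDA-MB-231 EVs (limma adjusted p = 0.0175) and not called with MCF10A EVs. The call of Derl2 was lost without the second PBS library or the second MDA-MB-231 EV library (limma adjusted p = 0.174 and 0.0962). Derl3, the third derlin, was hardly expressed: it had 13 reads in the MDA-MB-231 EV libraries together, 10 in the MCF10A EV libraries and 9 in the PBS libraries. Its normalised reads were 10.1 and 3.30 with MDA-MB-231 EVs, 4.32 and 5.10 with MCF10A EVs, and 3.31 and 5.64 with PBS, so the groups overlapped and no change could be detected at this depth (log2 change with MDA-MB-231 EVs 0.37, SE 0.53; the value is -0.32 without the first MDA-MB-231 EV library).

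The translocon subunits fell with both MDA-MB-231 and MCF10A EVs, as did 16.9% and 14.6% of all genes tested. Sec61b, the beta subunit of the channel, had 1262 and 1285 normalised reads with MDA-MB-231 EVs, 1611 and 1620 with MCF10A EVs, and 1754 and 1850 with PBS, and was 1.41-fold lower with MDA-MB-231 EVs and 1.12-fold lower with MCF10A EVs than with PBS (limma adjusted p = 2.63e-07 and 0.0101). Its call with MCF10A EVs was lost without the second PBS library or the first MCF10A EV library (limma adjusted p = 0.122 and 0.0575). Sec61a1, the subunit that forms the pore, had 6790 and 6575 normalised reads with MDA-MB-231 EVs, 7013 and 7714 with MCF10A EVs, and 8414 and 7852 with PBS. It kept the order of the groups, with a fall of 1.22-fold with MDA-MB-231 EVs (limma adjusted p = 8.34e-05) and 1.10-fold with MCF10A EVs (limma adjusted p = 0.0171); the log2 change of -0.14 with MCF10A EVs was -0.09 without the first PBS library and -0.08 without the first MCF10A EV library, and not called (limma adjusted p = 0.232 and 0.257). An antisense gene covers 8.16% of its exon bases, and its reads cannot be told apart.

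The mRNAs of the stress sensors fell with MDA-MB-231 EVs as well, as did 16.9% of all genes tested. Xbp1, the target that IRE1 splices and a gene that ATF6 induces, had 3553 and 3657 normalised reads with MDA-MB-231 EVs, 4199 and 3941 with MCF10A EVs, and 4783 and 4805 with PBS. The 3 groups stood apart, and Xbp1 was 1.33-fold lower with MDA-MB-231 EVs (log2 change -0.41, SE 0.04, limma adjusted p = 3.11e-07) and 1.18-fold lower with MCF10A EVs (log2 change -0.24, SE 0.04, limma adjusted p = 0.000113) than with PBS. Atf6 had 2983 and 2984 normalised reads with MDA-MB-231 EVs, 3728 and 3643 with MCF10A EVs, and 3866 and 3946 with PBS. The MDA-MB-231 EV libraries were the low ones, with a fall of 1.31-fold against PBS (log2 change -0.39, SE 0.03, limma adjusted p = 2.15e-07). The log2 change with MCF10A EVs was -0.08 and not called (limma adjusted p = 0.0611). Of 19 alternatives 4 called Atf6 lower with MCF10A EVs. These were edgeR (adjusted p = 0.0249) and limma with TMM, DESeq2 size factors or a filter of 5 CPM (limma adjusted p = 0.0413, 0.0329 and 0.0429).

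Ern1, which encodes IRE1, had 381 and 367 normalised reads with MDA-MB-231 EVs, 473 and 490 with MCF10A EVs, and 493 and 545 with PBS. It was 1.39-fold lower with MDA-MB-231 EVs than with PBS (log2 change -0.47, SE 0.08, limma adjusted p = 0.000139) and 1.29-fold lower than with MCF10A EVs (limma adjusted p = 0.00328), while the MCF10A EV libraries, just below PBS, were not called (limma adjusted p = 0.321).

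Per kilobase of annotated exon, the scale on which genes can be set beside each other, Calr, Hsp90b1, P4hb, Hspa5 and Pdia3 were the 5 highest of the 37 in the PBS libraries, at 16490, 15760, 14280, 13750 and 10930 mean normalised reads per kb. Derl3, at 2.25, Ern1, at 63.5, and Ero1lb, at 78.7, were the lowest. In MDA-MB-231 EV libraries the level of Hspa5 was 8146 per kb, below that of Pdia3 at 8646, whereas with PBS it stood above it. High and low genes alike fell: of the 5 highest in PBS, all fell with MDA-MB-231 EVs, and so did Ern1 and Ero1lb. Of all genes tested, 16.9% fell in that comparison.

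**Figure D4:**
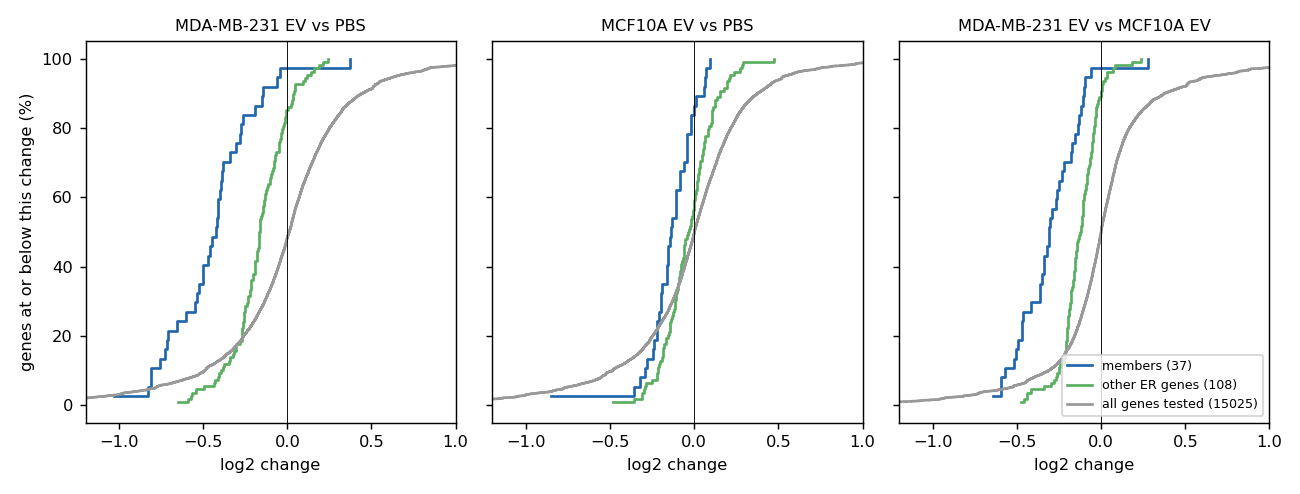
Share of genes (vertical axis, %) at or below each log2 change (horizontal axis) in the 3 comparisons, for the 37 genes (blue), 108 other ER genes (green) and all 15025 genes tested (grey). With MDA-MB-231 EVs against PBS the medians of the blue, green and grey curves are -0.43, -0.17 and 0.01, and with MCF10A EVs they lie closer together. In the lower tail with MCF10A EVs the blue curve lies right of the grey. There 13.9% of all genes were at or below the -0.36 of Ero1lb, and Ero1l alone of the 37 genes lay below it.

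A wider set of 108 other ER genes shows whether the falls covered the organelle as a whole. With MDA-MB-231 EVs against PBS, 68 of the 108 fell and 4 rose, with a median of -0.17, and 16 fell at least 1.25-fold. Of all genes tested, 16.9% fell, 17.9% rose and 7.70% fell at least 1.25-fold in that comparison. With MCF10A EVs 32 of the 108 fell and 18 rose, with a median of -0.04, against 14.6% and 17.1% of all genes. Rises there were thus about as frequent as among all genes tested, which include genes of few reads. No share among genes of like level was counted. Between the EV groups 54 were lower and 1 higher with MDA-MB-231 EVs, with a median of -0.12, against 10.1% and 6.84% of all genes. The 108 genes held 1.35% and 1.35% of the reads with MDA-MB-231 EVs, 1.45% and 1.44% with MCF10A EVs, and 1.46% and 1.45% with PBS. The shares with MCF10A EVs and PBS overlapped.

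The counts in each list of these other genes are a description, to be read beside the shares of all genes given above. Of 13 KDEL receptors, which return lumenal chaperones from the Golgi, and COPII coat proteins, which carry cargo out of the ER, 11 fell with MDA-MB-231 EVs and 10 with MCF10A EVs, and none rose. Sec23a, a coat subunit, had 2918 and 2778 normalised reads with MDA-MB-231 EVs, 3344 and 3236 with MCF10A EVs, and 4059 and 3981 with PBS. Its log2 changes against PBS were -0.50 with MDA-MB-231 EVs and -0.29 with MCF10A EVs (limma adjusted p = 4.83e-08 and 2.00e-05), and those of the receptor Kdelr3 were -0.54 and -0.36 (limma adjusted p = 1.04e-06 and 9.61e-05). Sec31a, another coat subunit, fell in both EV groups too, by 0.35 and 0.19 on the log2 scale with MDA-MB-231 and MCF10A EVs.

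Of 22 genes of the translocon, the signal recognition particle and signal peptidase, 17 fell with MDA-MB-231 EVs and none rose, whereas 7 fell and 5 rose with MCF10A EVs. Sec61g, the gamma subunit of the channel, was lower by 0.41 on the log2 scale with MDA-MB-231 EVs (limma adjusted p = 2.25e-06), and Ssr3, a subunit of the translocon-associated complex, by 0.26 (limma adjusted p = 2.11e-06). Srprb, the beta subunit of the signal recognition particle receptor, and Ssr1 were higher than PBS with MCF10A EVs (log2 changes 0.22 and 0.08) and lower with MDA-MB-231 EVs than with MCF10A EVs by 0.30 and 0.22 on the log2 scale (limma adjusted p = 7.01e-05 and 4.67e-05), as was Ssr2 by 0.28.

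In the list of N-glycosylation and lectin quality control, 12 of 17 genes fell and 3 rose with MDA-MB-231 EVs, and 2 fell and 5 rose with MCF10A EVs. Lman1, the cargo receptor ERGIC-53, and its partner Mcfd2 fell with MDA-MB-231 EVs by 0.44 and 0.39 on the log2 scale (limma adjusted p = 6.35e-08 and 1.54e-06). Man1b1, a mannosidase that trims misfolded glycoproteins, rose by 0.21 with MDA-MB-231 EVs and by 0.27 with MCF10A EVs (limma adjusted p = 0.000251 and 3.54e-05). Uggt1, the folding sensor that sends glycoproteins back to calnexin, had a log2 change of -0.16 with MDA-MB-231 EVs and of 0.09 with MCF10A EVs, both called.

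Among 8 further sensors and proteases of the unfolded protein response, 5 fell with MDA-MB-231 EVs, and 4 fell and 1 rose with MCF10A EVs. Eif2ak3, which encodes PERK, fell by 0.57 on the log2 scale with MDA-MB-231 EVs and by 0.30 with MCF10A EVs (limma adjusted p = 6.87e-06 and 0.00267). Wfs1, an ER membrane protein that restrains ATF6, was lower by 0.65 with MDA-MB-231 EVs than with PBS and by 0.46 than with MCF10A EVs (limma adjusted p = 1.30e-07 and 1.63e-05). Creb3l1 and Creb3l2, membrane-bound relatives of ATF6 that drive secretory genes, fell in both EV groups, by 0.59 and 0.39 with MDA-MB-231 EVs and by 0.48 and 0.29 with MCF10A EVs.

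Of 18 further degradation genes, 7 fell and none rose with MDA-MB-231 EVs, and 4 fell and 4 rose with MCF10A EVs; Nploc4, a cofactor of the p97 ATPase, was lower by 0.25 on the log2 scale with MDA-MB-231 than with MCF10A EVs (limma adjusted p = 0.000105). Of 12 chaperone partners 7 fell with MDA-MB-231 EVs, and of 5 other prolyl isomerases 4 fell, with a median of -0.195. Of 13 other disulfide enzymes 5 fell and 1 rose with MDA-MB-231 EVs; the riser was Tmx2, a membrane thioredoxin, which was also higher with MCF10A EVs (log2 changes 0.19 and 0.29), while its relative Tmx4 fell by 0.31 with MCF10A EVs and was higher with MDA-MB-231 EVs than with MCF10A EVs by 0.18.

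Members with an ERSE in the promoter window were then set beside members without one, as a description. Of all genes tested, 16.9% fell with MDA-MB-231 EVs and 14.6% with MCF10A EVs against PBS. Between the EV groups 10.1% were lower with MDA-MB-231 EVs. With MDA-MB-231 EVs against PBS, 8 of the 10 genes with ERSE fell, with a median of -0.44, and 18 of the 18 genes with a promoter entry but neither ERSE nor ERSE-II fell, with a median of -0.46. With MCF10A EVs 5 of 10 and 11 of 18 fell, with medians of -0.10 and -0.17. Between the EV groups 8 of 10 and 15 of 18 were lower with MDA-MB-231 EVs, with medians of -0.36 and -0.27. The genes with ERSE included Ero1lb, Hspa5, Creld2 and Syvn1, among the largest falls with MDA-MB-231 EVs, and also Canx and Derl3, which were not called. Derl3, with 9 to 13 reads per group, was too low in reads for a change to be detected. Ero1l, with the largest fall of all, had no exact match in its window.

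**Figure D5:**
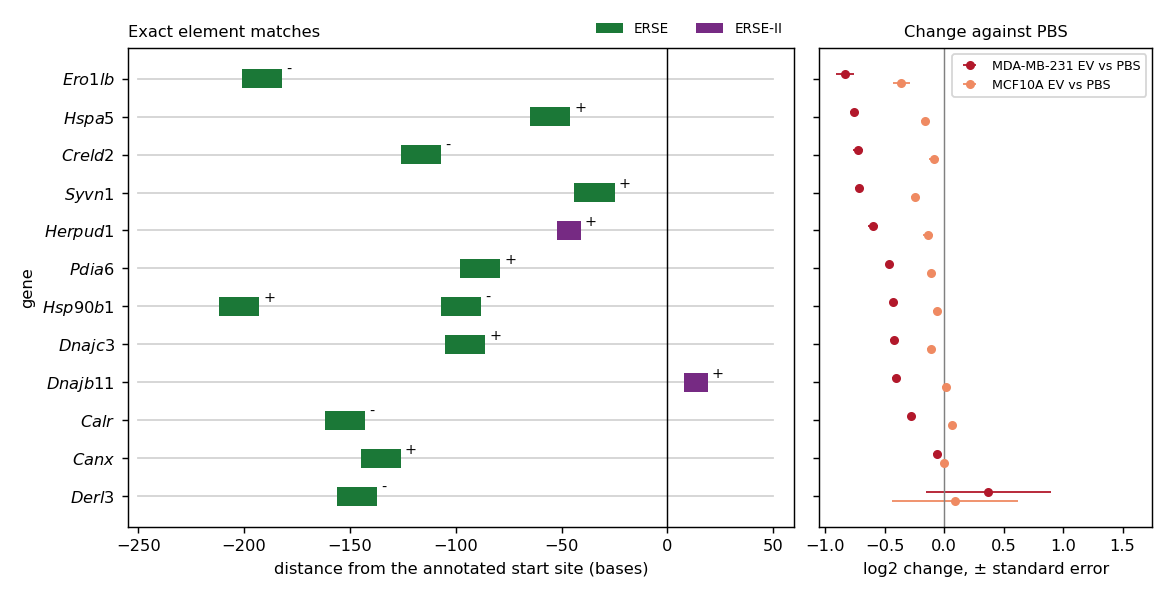
Left, position of exact ERSE (green) and ERSE-II (purple) matches in bases from the annotated start site, with the strand of the match relative to the gene, for the 12 genes that had one. Right, log2 change of the same genes against PBS with the standard error, after MDA-MB-231 EVs (dark red) and MCF10A EVs (orange). The element lies before the start in all but Dnajb11, and the changes with MDA-MB-231 EVs run between -0.83 for Ero1lb and 0.37 for Derl3. The value of Derl3 rests on 13 reads in the MDA-MB-231 EV libraries together and has an SE of 0.53.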

How the data were processed

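Gene reads were measured in 6 RNA-seq libraries, 2 per group, made with a stranded mRNA kit per the labels' protocols. The authors deposited normalised signal for 20475 genes: edgeR quantile-adjusted pseudo-counts, here called normalised reads. The submitters' processing notes name TopHat2, edgeR and the human build hg19; the mouse build, counter and counted strand are not stated in the sources used here, so members are located by RefSeq coordinates on GRCm38.p6. Whole reads were recovered from the deposited values by inverting the adjustment (122850 of 122850 values within a relative 1e-06).

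limma 3.58.1 (R 4.3.3, eBayes with trend, 3 residual and 11.5 prior degrees of freedom) was fitted to log2 of the value plus 1 in 1 model of all 6 libraries, for the 15025 genes that reached 1 normalised read in 2 or more libraries. Benjamini-Hochberg adjustment ran over all of them. Fold changes are on that log2 scale, which understates changes of low genes. A count of 0 allows up to 3 reads, 0.102 to 0.134 CPM, counting error only. The labels do not say that replicates were separate cultures, so p-values measure the spread between these libraries. The fits were also run on simulated data in which genes changed in the MDA-MB-231 EV libraries alone. The outcome is not given here, and no result above rests on it. Simulated libraries were drawn independently, so they cannot show whether the replicates were separate cultures.

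Members and lists were chosen with earlier results of these data known, so no list was tested. Values in each library are given for Hspa5, Hsp90b1, Xbp1, Atf6 and Ern1. In each role they are also given for the 3 called members that changed most with MDA-MB-231 EVs and those not called. Of other ER genes, up to 8 per comparison were picked by smallest p among the 3 highest-ranked in each direction per list. Eif2ak3 was added after its values were seen. These have log2 changes in the text, and Sec23a alone has its values in each library. Of 109 listed, 108 other ER genes were found. Exon lengths and overlaps came from GENCODE vM21. Alternatives were edgeR 4.0.16 and DESeq2 1.42.0 on recovered reads, other scalings, filters and pseudocounts, a replicate block and leaving out each library. Same-numbered libraries did not deviate together (r of -0.01, 0.00 and 0.02 over 10309 genes), so the main model holds no term for the number. These values cannot show whether same-numbered libraries were handled together.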

Additional observations from a re-analysis of the deposited data

Results flagged for a closer look

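The change against PBS differed between the kinds of EV for 30 of the 37 genes, by limma's test of the difference itself (adjusted p under 0.05), and in all 30 the value was lower with MDA-MB-231 EVs than with MCF10A EVs. As background, 10.1% of all genes tested were lower and 6.84% higher in that comparison. The difference on the log2 scale was -0.64 for Creld2, -0.60 for Hspa5, -0.59 for Hyou1, -0.58 for Sdf2l1, -0.52 for Pdia4 and -0.50 for Manf. It was -0.49 for Dnajb9, -0.47 for Ero1lb and for Syvn1, -0.46 for Herpud1 and -0.42 for Dnajb11. A middle set had -0.37 for Ern1, -0.36 for Hsp90b1, -0.35 for Pdia6, -0.34 for Sec61b and for Calr, -0.32 for Sel1l, -0.31 for Fkbp14 and for Dnajc3, and -0.30 for Atf6. The smaller ones were -0.29 for Pdia3, -0.27 for Edem1, -0.27 for Fkbp2, -0.25 for P4hb, -0.23 for Derl1, -0.22 for Ppib, -0.18 for Ero1l, -0.17 for Xbp1, -0.14 for Sec61a1 and -0.13 for Txndc5. The difference of Sec61a1 was -0.07 without the second MCF10A EV library and not called (limma adjusted p = 0.376), nor was it called without the second MDA-MB-231 EV library (limma adjusted p = 0.177), and that of Xbp1 was -0.13 and not called without the first MCF10A EV library (limma adjusted p = 0.061). Ero1l thus had the largest fall in each EV group and one of the smallest differences between them. Explanations were not tested.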

How the results depend on the processing

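The 34 genes lower with MDA-MB-231 EVs than with PBS were 31 to 35 under the alternatives run, and none was called higher under any of them. The 22 lower with MCF10A EVs were 7 with no filter on low values and 7 in limma without trend, and 16 to 23 with 1 library left out; the 30 lower with MDA-MB-231 than with MCF10A EVs were 19, 16 and 29 to 30 under the same settings. A member was called higher with MCF10A EVs in limma without the first or the second MDA-MB-231 EV library (0 to 1), with only the 2 groups compared (1) and with library totals (1), and 2 were with quantile scaling. The members' median change was -0.36 with library totals with MDA-MB-231 EVs against PBS, and -0.27 with library totals and -0.26 with quantile scaling against MCF10A EVs. Of all genes 3286, 2433 and 711 were called with no filter in the comparisons of MDA-MB-231 EVs with PBS, of MCF10A EVs with PBS and of the EV groups, and 3346, 2231 and 378 in limma without trend, where the main counts were 5231, 4764 and 2541; DESeq2 called 1514 in the third, and leaving out a library left 4018 to 5056, 3370 to 4897 and 1425 to 2257. Other ER genes called, 72, 50 and 55, were 47, 9 and 2 without trend, 53, 18 and 15 with no filter, and 63 to 73, 29 to 51 and 38 to 50 with 1 library left out. With library totals 67.8% of the genes called with MDA-MB-231 EVs against PBS were higher, against 51.4% in the main analysis, and 61.7% (50.7% with quantile scaling), against 40.4%, with MDA-MB-231 against MCF10A EVs. The cause of these shifts was not tested. A replicate block changed no member's call (34, 22 and 30 lower).

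Signs changed in members that the main analysis did not call. With 1 library left out, Derl3 ran between -0.32 and 1.06 with MDA-MB-231 EVs and between -0.22 and 0.40 with MCF10A EVs, against PBS, and between -0.41 and 0.97 between the EV groups; with MCF10A EVs it was -0.008 without the second MCF10A EV library. With MDA-MB-231 EVs against PBS, Hspa13 was 0.019 and Canx 0.004 with library totals, and Canx was 0.034 with quantile scaling (0.009 against MCF10A EVs). With MCF10A EVs against PBS, Canx was -0.006 without the second PBS library, with TMM and in edgeR, -0.011 with DESeq2 size factors and in DESeq2, and -0.031 to 0.033 with 1 library left out. With 1 library left out Pdia4 ran between -0.06 and 0.026, Txndc5 between -0.041 and 0.006 and Dnajb11 between -0.032 and 0.057. Pdia4 and Txndc5 were both 0.006 with library totals, and they were 0.007 and 0.019 with quantile scaling, and Pdia3 was 0.059 with quantile scaling (limma adjusted p = 0.0259). Depth limits Derl3, with 9 to 13 reads per group.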

Other observations

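Exact ERSE matches also stood in the promoters of 13 tested genes outside the 37. None of the 13 fell with MDA-MB-231 EVs against PBS and 1 rose, Hnrnpa3, an RNA-binding protein, with a log2 change of 0.16 (limma adjusted p = 0.00041). With MCF10A EVs 3 rose: Alg12, a mannosyltransferase of N-glycan synthesis, by 0.24, the zinc finger gene Zfp57 by 0.26 and Hnrnpa3 by 0.09. Alg12, Zfp57 and Xlr3c were lower with MDA-MB-231 EVs than with MCF10A EVs, by 0.35, 0.21 and 0.23 on the log2 scale (limma adjusted p = 0.00403, 0.037 and 0.0145). The median of the 13 was -0.06 with MDA-MB-231 EVs and 0.11 with MCF10A EVs, against PBS. Of all genes tested, 16.9% fell and 17.9% rose with MDA-MB-231 EVs against PBS, and 14.6% and 17.1% with MCF10A EVs. Between the EV groups 10.1% were lower and 6.84% higher with MDA-MB-231 EVs. The counts among the 13 are a description beside these shares and were not tested. Several of the 13 had wide errors, and the X-linked Xlr3a, Xlr3b and Xlr3c belong to a family of near-identical copies whose reads are uncertain.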
